A study of Mus musculus with 8 samples.

Results

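Of the domains of the histone variant H2A.X marked as higher in serum than in 2i medium, 1927 had 50% or more of their bases in domains marked as higher after TDG knockdown (KD) than in its control. They are called shared domains here. They were chosen by the marks of these 2 lists, among 4197 serum domains on chromosomes 1 to 19 without 6 and 8 that start at or after position 3000001. The serum list holds 4483 serum domains in all, of which 279 lay on other chromosomes and 7 began before that position. The other 2270 serum domains on the 17 chromosomes are called the remaining serum domains. Shared and remaining serum domains were then followed through the lists for DNMT1, TKO, PKCi and SRCi, which took no part in the choice. The 6 lists together hold 25499 domains.

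The series profiled H2A.X in mouse embryonic stem cells by native chromatin immunoprecipitation and sequencing, with 8 samples and 1 library per condition. Chromatin was cut with MNase, and 0.5 µg of antibody was used per immunoprecipitation. The DNMT1 knockout (KO) cells grew in serum, and wild-type cells grew in 2i, in PKCi medium with 5 µM Gö6976 (a protein kinase C inhibitor) or in SRCi medium with 1.5 µM CGP77675 (a Src inhibitor) and 3 µM CHIR99021 (a GSK3 inhibitor). Their strain is given as 129S6/C57B6. TDG control, Tdg KD, TKO control and TKO cells are of strain 129/Ola and grew in serum, and both controls are wild type. Serum medium held 15% fetal bovine serum, and leukaemia inhibitory factor is stated for serum, PKCi and SRCi media. How the knockdown and knockouts were made, and whether lines are single clones, is not given in the sources used here, and the labels do not spell out TKO. The wild-type serum library and the DNMT1 control library enter here through their lists alone. Whether they are one library is not given in the sources used here, so serum domains and DNMT1 control domains may share one. The SRCi, PKCi and serum lists all name 2i.

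H2A.X replaces ordinary H2A in some nucleosomes and is best known for its phosphorylated form at DNA breaks. DNMT1 copies DNA methylation to the new strand at replication, and TDG excises oxidised forms of methylcytosine on the way back to unmodified cytosine. Mouse embryonic stem cells carry high DNA methylation in serum and low methylation in 2i. The series title links H2A.X placement to loss of methylation, and each list compares H2A.X between 2 conditions named by genotype, knockdown or medium.

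A mark says in which of 2 libraries a domain was called higher within its list, and is no level. The deposited signed score is the authors' own, has no stated unit, and rises toward the first library of a list. All 1927 shared domains had a serum list score below 0, which points to 2i, from -9.07 to -3.20 with a median of -7.46. The remaining serum domains had a median of -7.72, the 2i domains of the same list -20.3, and the median over all bases of the list was -7.76. By these medians, serum marks stood for scores less far below 0 than 2i marks, and close to that of the list as a whole. The TDG KD domains that met shared domains likewise had a median score of 0.297, with 521 of 637 above 0, on the side of the control. The other deposited serum list score, summed over the domain, had a median of 0.922 per kb in shared domains and 0.869 in remaining ones. All directions rest on these marks, on the order of the names of the lists, and on 1 library per condition, so differences between conditions could not be set against replicates.

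The overlap of serum and TDG KD domains was close to all or none. Of the 4197 serum domains, 1528 lay wholly within TDG KD domains and 2124 met none. Another 258 were covered by 75% to under 100%, 141 by 50% to under 75%, 96 by 25% to under 50%, and 50 by less. Over these 17 chromosomes the rule took 45.9% of serum domains. Among domains of 20 kb or more, those just inside the limit were chromosome 13, 45095001 to 45679000, at 50.3% and chromosome 3, 95659001 to 95802000, also at 50.3%. Just outside lay chromosome 14, 64954001 to 65286000, at 49.7% and chromosome 2, 127451001 to 127582000, at 49.6%. The bases common to serum and TDG KD domains came to 467 Mb, which is 65.1% of the serum bases and 73.2% of the TDG KD bases there. For comparison, TDG KD domains covered 29.8% of the 17 chromosomes and serum domains 33.6%.

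**Figure D1:**
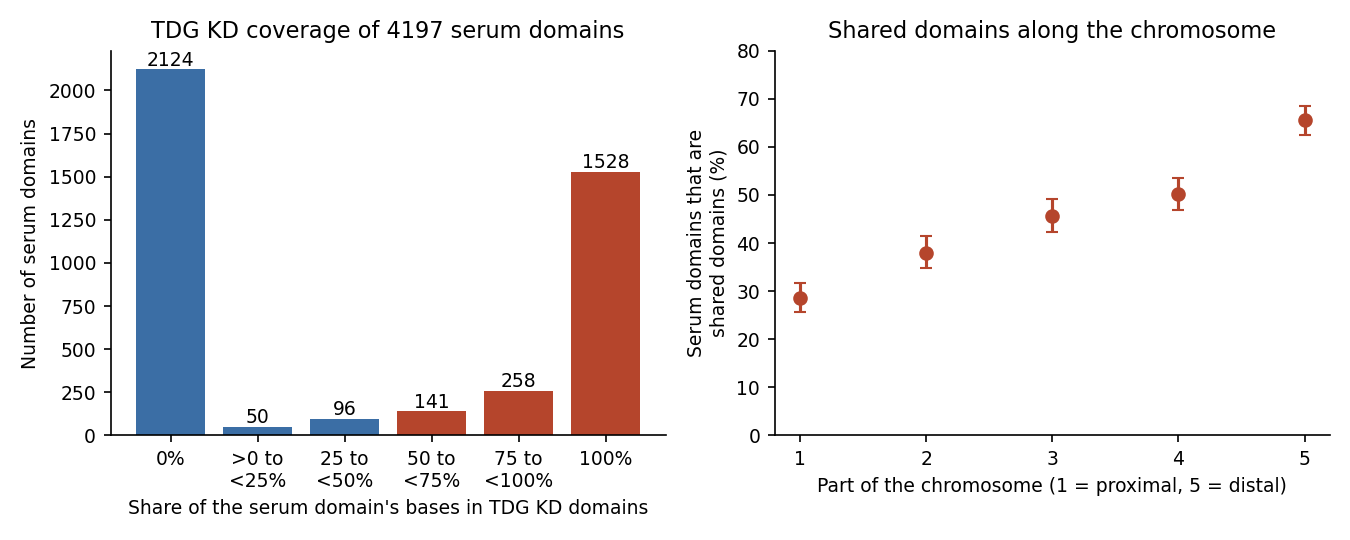
Left, number of serum domains by the share of their bases in TDG KD domains, with the 3 classes at 50% or more (shared domains) in red and the others in blue. Right, percentage of serum domains that are shared domains in each of 5 equal parts of the chromosome, from the proximal end (1) to the distal end (5), pooled over 17 chromosomes, with Wilson 95% intervals; it was 28.6% in part 1 and 65.6% in part 5.

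The shared domains were long. Their lengths ran from 10 kb to 3636 kb with a median of 155 kb (quartiles 75 and 311 kb), and they covered 482 Mb. The remaining serum domains had a median of 67 kb (quartiles 39 and 121 kb) and covered 236 Mb. The share of serum domains that were shared domains was 18.0% under 20 kb, 27.1% from 20 to under 50 kb, 33.7% from 50 to under 100 kb and 50.9% from 100 to under 200 kb. It reached 70.7% from 200 to under 500 kb and 89.7% at 500 kb or more. The longest remaining serum domain, chromosome 7, 39354001 to 46356000, at 7002 kb, is 1 of 24 serum blocks with a score within 1 of 0. None of these 24 was a shared domain, and without them the longest remaining domain measured 1542 kb.

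The longest shared domain was chromosome 4, 151231001 to 154867000, at 3636 kb. All of it lay in TDG KD domains and 96.6% on the DNMT1 control side. Chromosome 5 held 3 more of the 5 longest, 111816001 to 115371000 with a length of 3555 kb, 116170001 to 119013000 with 2843 kb and 119205001 to 121590000 with 2385 kb. The other one, 168044001 to 171362000 on chromosome 2, was 3318 kb long, and 83.4% of it lay in TDG KD domains. These 5 had 82.7% to 97.9% of their bases on the DNMT1 control side, 13.4% to 47.9% on the TKO control side, and 99.9% or more on the PKCi side.

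Shared domains lay next to each other. The next serum domain along the chromosome was again a shared domain for 1490 of 1922, or 77.5% (Wilson 95% interval 75.6% to 79.3%, which like all intervals here covers counting error only and takes neighbouring domains as independent). For the remaining serum domains this was so for 434 of 2258, or 19.2% (17.6% to 20.9%). By the rule, neighbouring serum domains inside 1 TDG KD domain are all shared domains, so this is a description of the choice. Of the 761 TDG KD domains that begin on these chromosomes at or after the same position, 637 met at least 1 shared domain, with a median of 2 and a maximum of 28. Those that met one had a median length of 603 kb, and the 124 that met none had 20.5 kb. Each of 2 TDG KD domains met 28 shared domains. They were chromosome 4, 130120001 to 142028000, and chromosome 12, 104161001 to 114686000, whose bases were 85.7% and 78.6% shared domain.

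Joined over gaps of up to 100 kb, the shared domains formed 923 stretches, 463 of them a single domain. The longest spanned 9263 kb of chromosome 2, from 164159001 to 173422000, with 8 shared domains. The next spanned 7478 kb of chromosome 5 (111535001 to 119013000) and 6010 kb of chromosome 11 (113459001 to 119469000). Stretches of 4957 kb on chromosome 17 (45263001 to 50220000) and 4606 kb on chromosome 9 (118052001 to 122658000) came after these. The DNMT1 control side covered from 75.03% (chromosome 17) to 86.0% (chromosome 2) of these 5 stretches. The TKO control side covered 95.9% of the one on chromosome 11 and 7.86% to 25.1% of the other 4.

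Their share of serum domains was larger toward the distal end of the chromosome. Mouse autosomes have their centromere at the start of the numbering. Shared domains made up 28.6% of serum domains in the first of 5 equal parts (243 of 850), and 38.0%, 45.7%, 50.2% and 65.6% in the next 4 in turn (592 of 903 in the last). Within 5 Mb of the last listed position they were 106 of 143, or 74.1% (66.4% to 80.6%), and within 5 Mb of position 3000001 they were 61 of 183, or 33.3% (26.9% to 40.4%). By chromosome their share ran from 28.2% on chromosome 18 (58 of 206) to 69.4% on chromosome 11 (209 of 301), with chromosome 17 at 62.3% and chromosome 19 at 58.9%. TDG KD domains covered 19.9% of chromosome 18, 50.4% of chromosome 11, 38.0% of chromosome 17 and 34.0% of chromosome 19.

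The DNMT1 list set the 2 kinds of serum domain apart. DNMT1 control domains, marked as higher in the control than in the knockout, held 50% or more of the bases of 1090 shared domains, or 56.6% (54.3% to 58.8%). The same held for 755 remaining serum domains, or 33.3% (31.4% to 35.2%). The difference was 23.3 percentage points (Newcombe 95% interval 20.3 to 26.2), where all 4197 serum domains gave 44%. By bases, the DNMT1 control side covered 67.9% of the shared domains, 37.6% of the remaining serum domains and 45.4% of the 17 chromosomes. Shared domains thus lay above the chromosome level and remaining serum domains below it. Of the shared domains, 394 lay wholly on the DNMT1 control side and 669 did not meet it. Bases on neither side of the DNMT1 list made up 32.0% of shared domains and 61.8% of remaining ones.

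The DNMT1 KO side was nearly missing from both. It held 50% or more of 1 shared domain, 0.0519% (0.00916% to 0.293%), and of 17 remaining domains, 0.749% (0.468% to 1.20%), where all serum domains gave 0.429%. The difference was -0.697 points (-1.15 to -0.327). With any overlap it was within its counting error, at 4.20% against 4.32% (-0.114 points, -1.34 to 1.14), and weighted by length it was -0.250 points. Any overlap is met more easily by longer domains, and shared domains were longer. The 1 shared domain was chromosome 11, 52033001 to 52046000, 13 kb long, which lay wholly on the TKO control side as well. On that chromosome 98.6% of shared and 98.9% of remaining domains were on the TKO control side. This domain did not meet the PKCi side and lay wholly on the SRCi side. By bases the knockout side covered 0.114% of shared domains, 0.529% of remaining ones and 3.74% of the 17 chromosomes.

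**Figure D2:**
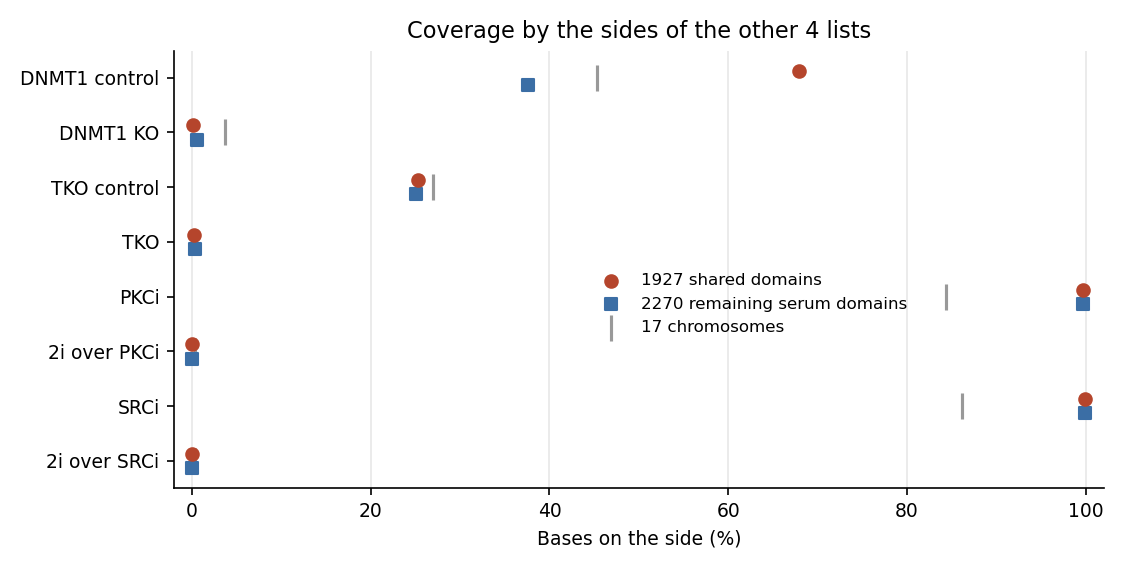
Percentage of bases on each side of the 4 lists that took no part in the choice, for shared domains (red circles), remaining serum domains (blue squares) and all of the 17 chromosomes (grey bars). On the DNMT1 control side the shared domains stand at 67.9% and the remaining ones at 37.6%, while the 2 kinds lie within 1 point of each other on the other 7 sides.

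The coverage was lower where only one of the 2 marks was present. Bases in both serum and TDG KD domains were on the DNMT1 control side in 69.0%, and by chromosome in 54.9% to 75.6%. Bases in serum domains alone (251 Mb) were so in 37.4%, bases in TDG KD domains alone (171 Mb) in 27.6%, and bases in neither (1251 Mb) in 40.5%. TDG KD bases outside serum domains thus lay under the level of bases outside both. On the DNMT1 KO side the order was different, at 0.111% in both, 0.509% in serum alone, 6.39% in TDG KD alone and 5.38% in neither.

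The excess on the DNMT1 control side was present on each of the 17 chromosomes. By bases it ran from 10.4 points on chromosome 11 to 50.7 on chromosome 7, with a median of 29.2, and by domains from 8.25 points on chromosome 18 to 42.1 on chromosome 7. Shared domains had 51.3% of their bases on that side on chromosome 3, the lowest value, and 74.8% on chromosome 4, the highest. The low value of the remaining domains on chromosome 7, 18.8%, includes the block of 7002 kb scored near 0. Without the blocks scored within 1 of 0 it was 28.3%, and over all 17 chromosomes 39.4% in place of 37.6%. The excess by bases was then 41.2 points on chromosome 7, below the 42.5 points of chromosome 2, and it was above 0 on all 17 chromosomes. Within the 5 equal parts of the chromosome, from proximal to distal, the difference by domains was 20.3, 23.2, 21.0, 20.04 and 24.4 points.

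**Figure D3:**
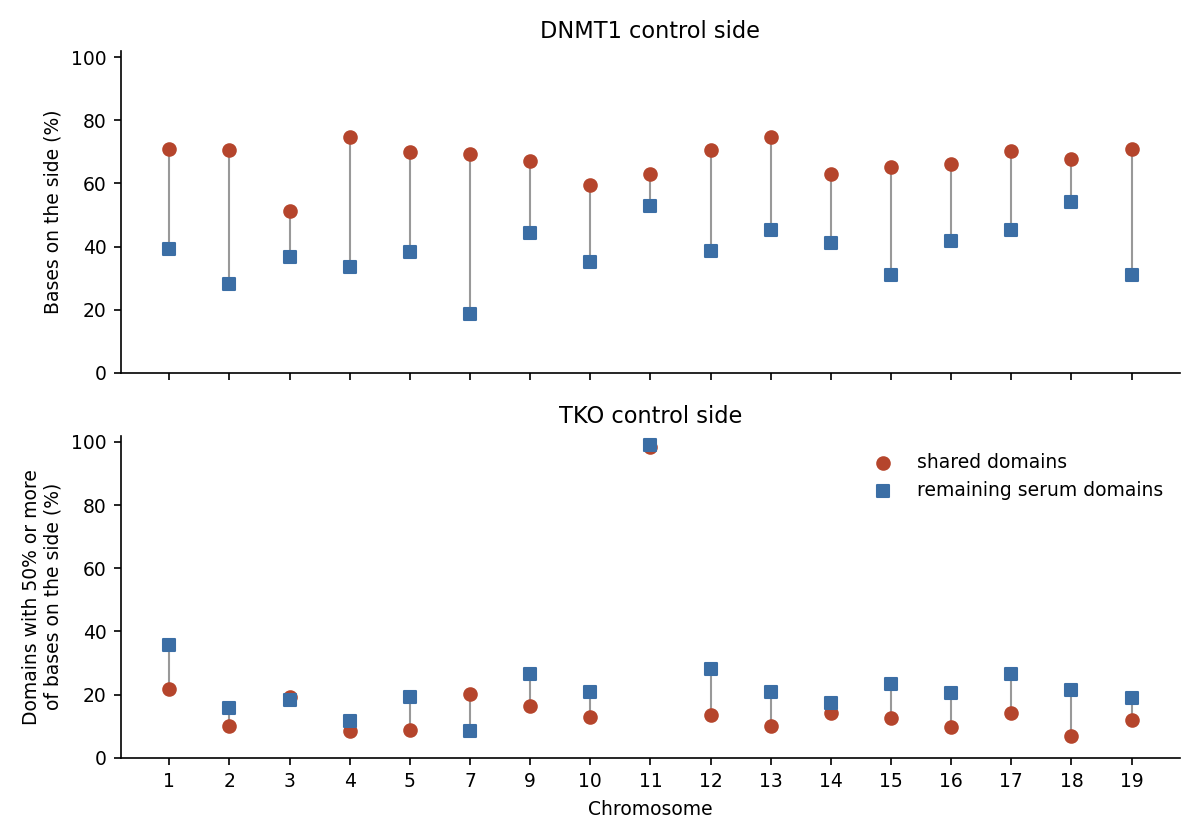
Values of shared (red circles) and remaining (blue squares) serum domains on each of 17 chromosomes: above, percentage of bases on the DNMT1 control side, and below, percentage of domains with 50% or more of their bases on the TKO control side. Above, the red points lie higher on all 17 chromosomes; below, they lie lower on 15, and chromosome 11 stands near 100% for both.

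Length moved with this result. Under 20 kb, 3 of 27 shared domains and 25 of 123 remaining ones were on the DNMT1 control side, and from 20 to under 50 kb the shares were 29.5% and 29.4% (difference 0.105 points, -6.27 to 6.89). From 50 to under 100 kb they were 41.3% and 30.7%, from 100 to under 200 kb 54.5% and 38.8%, and from 200 to under 500 kb 71.8% and 47.6%. At 500 kb or more, 192 of 226 shared domains (85.0%) and 11 of 26 remaining ones (42.3%) were on that side. The difference was thus within its counting error under 50 kb and 42.7 points (23.2 to 59.9) at the top. The 26 remaining domains of the top class include the block of 7002 kb scored near 0. No value for this class without blocks scored within 1 of 0 is given. Weighted by the lengths of the shared domains, an alternative chosen after seeing the data, the difference was 17.9 points.

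**Figure D4:**
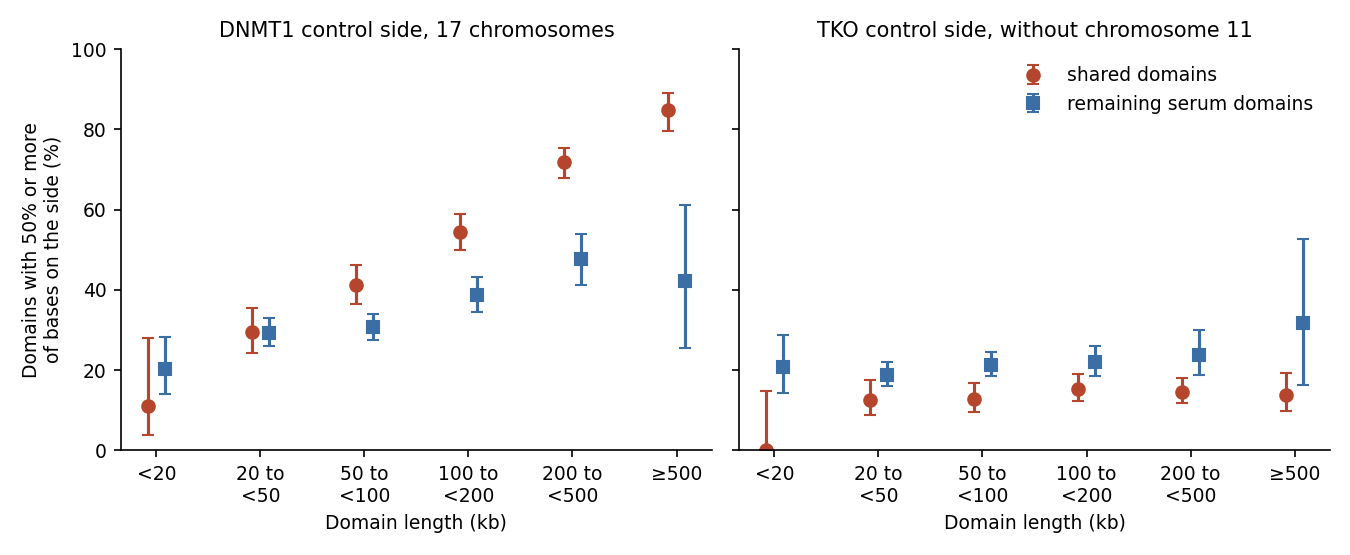
Percentage of domains with 50% or more of their bases on the DNMT1 control side (left, 17 chromosomes) and on the TKO control side (right, without chromosome 11) by domain length in kb, for shared (red circles) and remaining (blue squares) serum domains, with Wilson 95% intervals. On the left the red points climb from 11.1% to 85.0% with length; on the right they stay between 0% and 15.3%, under the blue points in all 6 classes.

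The serum score also moved with it. Serum domains were put in 4 groups of about equal size by score. In the group with the lowest scores, 56.6% of shared and 44.1% of remaining domains were on the DNMT1 control side, a difference of 12.5 points (6.11 to 18.8). In the next 2 groups the differences were 14.1 and 32.5 points. In the group with the highest scores, least far toward 2i, the shares were 59.1% and 21.8%, a difference of 37.3 points (31.7 to 42.7). Length changed over the groups as well. From the lowest scores to the highest, the remaining domains had median lengths of 114, 79, 51 and 28 kb. The shared domains had 157, 169, 173 and 100 kb. Shared domains stayed between 49.6% and 60% over the 4 groups, while the remaining ones ran from 44.1% down to 21.8%. The part of length in this was not tested.

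A closer comparison used the 388 serum domains of which 10% to 90% lay in TDG KD domains. Here the bases inside (72.1 Mb) and outside (42.5 Mb) belong to the same serum domains. The DNMT1 control side covered 63.0% of the bases inside and 44.6% of those outside. It was higher inside in 127 domains, higher outside in 59 and equal in 202, of which 141 were at 0 on both parts and 61 wholly covered. For the TKO control side the coverage was 27.6% inside and 32.0% outside, with 39 domains higher inside and 60 higher outside.

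Around the edges of TDG KD domains the DNMT1 control coverage of serum bases stepped up and went on increasing inward. Serum bases up to 50 kb outside an edge were on the DNMT1 control side in 35.0%, and those up to 50 kb inside in 49.2%. From 50 to 100 kb inside the value was 58.5%, from 200 to 250 kb 66.9% and from 450 to 500 kb 73.7%. On the outside it stayed at 35.0% to 38.8% up to 400 kb and was 51.5% in the window from 450 to 500 kb, which holds 5.87 Mb. Windows far inside can come from long TDG KD domains only. TKO control coverage was 26.2% and 26.0% on either side of the edge and lay between 24.5% and 30.0% throughout.

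**Figure D5:**
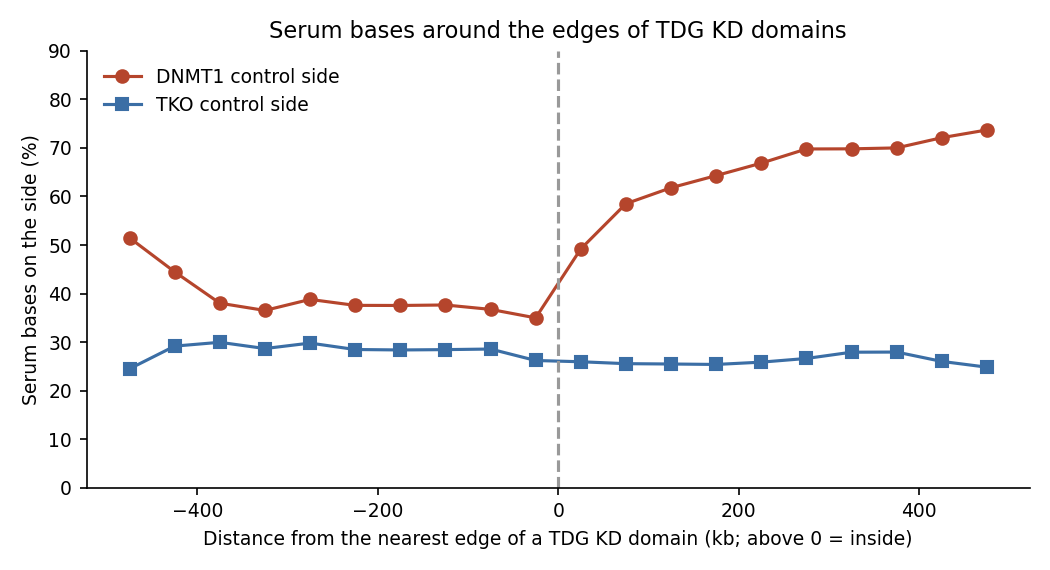
Percentage of serum bases on the DNMT1 control side (red circles) and the TKO control side (blue squares) against distance in kb from the nearest edge of a TDG KD domain, in windows of 50 kb over 17 chromosomes, with positive distances inside. The red line goes from 35.0% just outside to 49.2% just inside and on to 73.7%, while the blue line stays between 24.5% and 30.0%.

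In the TKO list the pooled difference between the 2 kinds was small, and its direction turned with the overlap asked for. TKO control domains held 50% or more of 444 shared domains, 23.0% (21.2% to 24.97%), and of 549 remaining domains, 24.2% (22.5% to 26.0%). The difference was -1.14 points (-3.71 to 1.44) and all serum domains gave 23.7%. With any overlap in place of 50%, 34.3% of shared and 30.0% of remaining domains met the TKO control side, a difference of 4.35 points (1.51 to 7.18). Longer domains meet a side more easily, and shared domains were longer (median 155 kb against 67 kb). Weighted by length, the difference at 50% was -3.81 points. The part of length in the value for any overlap was not tested. All of these differences include chromosome 11, which stood apart in this list. There 98.6% of its 209 shared domains and 98.9% of its 92 remaining domains were on the TKO control side. Without chromosome 11 the shares were 13.9% (12.3% to 15.6%) and 21.0% (19.4% to 22.8%), a difference of -7.18 points (-9.52 to -4.79).

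Shared domains were below the remaining ones on 15 of 17 chromosomes, with a median of -9.90 points. The exceptions were chromosome 7 (20.1% against 8.50%) and chromosome 3 (19.4% against 18.5%). By bases they were below on 13. Without chromosome 11 the difference was below 0 in all 6 length classes, from -6.32 points at 20 to under 50 kb to -20.7 under 20 kb, and in all 5 parts of the chromosome, from -11.6 to -4.87. Its interval reached above 0 in the last part (-10.8 to 0.723). The DNMT1 control side was thus more frequent at shared than at remaining domains, and the TKO control side less frequent outside chromosome 11.

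In 288 shared domains both control sides held 50% or more of the bases, 14.9% against 13.4% (305) of the remaining ones. Without chromosome 11 the order was the other way, at 10.5% (180 of 1718) against 12.4% (270 of 2178). DNMT1 control alone did so in 802, or 41.6% (39.4% to 43.8%), against 450, or 19.8% (18.2% to 21.5%). TKO control alone did so in 156, 8.10%, against 244, 10.7%. Without chromosome 11 this was 58, or 3.38% (2.62% to 4.34%), against 188, or 8.63% (7.52% to 9.89%). The longest shared domain on the TKO control side spanned 1941 kb of chromosome 7 (36765001 to 38706000), with 71.1% of its bases there. The next spanned 1936 kb of chromosome 4 (126800001 to 128736000), with 56.0%. The first lay wholly on the DNMT1 control side too.

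Domains marked as higher in TKO held 3 shared domains, 0.156% (0.0530% to 0.457%), and 7 remaining ones, 0.308%, where all serum domains gave 0.238%. All 3 lay wholly on the TKO side. Chromosome 17 held a domain of 399 kb (24522001 to 24921000) and its neighbour of 25 kb (24927001 to 24952000), and chromosome 3 one of 330 kb (8922001 to 9252000). The first of these was also on the DNMT1 control side in 34.8% of its bases, and the other two did not meet that side.

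PKCi and SRCi domains took in nearly every serum domain. The PKCi side held 50% or more of 1917 shared domains, 99.5% (99.0% to 99.7%), and of 2250 remaining ones, 99.1% (98.6% to 99.4%), where all serum domains gave 99.3%. The SRCi side held 1922, 99.7% (99.4% to 99.9%), and 2261, 99.6% (99.2% to 99.8%), against 99.7% of all. The differences were 0.362 points (-0.171 to 0.894) and 0.137 points (-0.257 to 0.522). By bases the PKCi side covered 99.7% of both kinds and 84.4% of the chromosomes, and the SRCi side 99.9% of both and 86.2%. All 1090 shared domains on the DNMT1 control side were on the PKCi and SRCi sides as well, as nearly every serum domain was. The lists share a 2i condition, so the overlap of serum domains with PKCi and SRCi domains is not a separate result.

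Domains marked as higher in 2i held 50% or more of 0 shared domains against PKCi and 0 against SRCi, which allows a share of up to 0.156% in each. They held 1 remaining domain each, and all serum domains gave 0.0238% in both lists. The scores under the marks differed slightly. Averaged over bases, the PKCi list score was 4.31 over shared domains, 4.57 over remaining ones and 4.91 over the whole PKCi side, where lower is further toward PKCi. In the SRCi list the values were 5.39, 5.56 and 5.91. In the DNMT1 list, over DNMT1 control bases, they were -2.52, -2.61 and -2.63, where higher is further toward the control. In the TKO list they were -0.540, -0.556 and -0.572 over TKO control bases. In each of these 4 lists the shared domains thus lay further toward the side in question than the remaining ones, by 0.0162 to 0.262 of the list's own score unit. These gaps have no replicate error to be set against. Those of the PKCi and SRCi lists are not separate results, since both lists share 2i with the serum list. The TKO values include chromosome 11, and no score without it is given. By sign, however, the averages of all 4 lists point to the other library of their list, DNMT1 KO, TKO or 2i. The medians over all bases of the DNMT1, TKO, PKCi and SRCi lists were -2.66, -0.667, 5.05 and 6.04.

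The shared domains with the highest serum scores were short. Chromosome 15, 25764001 to 25775000, scored -3.20 and chromosome 15, 73014001 to 73025000, scored -3.44, each 11 kb long. The lowest were chromosome 2, 129909001 to 130138000, at -9.07 and chromosome 1, 186262001 to 186562000, at -8.99. Of the 5 with the highest scores, 4 did not meet the DNMT1 control side and 1 lay wholly on it. Of the 5 with the lowest, 2 did not meet it, 2 lay wholly on it and 1 had 50.5% of its bases there.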

How the data were processed

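The submitters' processing notes name Bowtie2 2.0.6 and the mouse build mm9. No source used here gives the domain caller, its settings, any depth scaling or pooling. The authors deposited 6 lists of domains on a grid of 1 kb, each with a mark for the higher library, a signed score and a score summed over the domain. Both scores lack a stated unit. Read depth is unknown.

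For each serum domain, the share of its bases on each side of every list was computed on the 1 kb grid (Python 3.11.15, numpy 2.4.6, scipy 1.17.1). A domain counted as on a side at 50% or more of its bases. Shares carry Wilson 95% intervals and differences Newcombe 95% intervals, and a count of 0 an upper limit of 3 counts. No test was made over regions, and with 1 library per condition none is possible between conditions. Coverage and intervals were tested on simulated data. The simulated counts took domains as independent, so they say nothing on the intervals of neighbouring domains that go together, as here. Coordinates are mm9, counted from 1. Genes and sequences at domains were not analysed here, since mm9 annotation and sequence were not used. Named regions followed rules on length, score and distance from the limit, and a few of each are printed. The domains, rules and comparisons were chosen with earlier results of these data known. The comparisons at edges of TDG KD domains, in domains they cross, within score groups, within the 5 chromosome parts and over the 4 kinds of base were added after seeing the data.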

Additional observations from a re-analysis of the deposited data

How the results depend on the processing

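Alternatives left the number of shared domains at 1664 to 2073, apart from 1099 for the 50% of serum domains with the highest scores. The excess on the DNMT1 control side (23.3 points) stayed above 0 in all 11 alternatives. It was 26.7 with any overlap, 30.3 by bases, 35.2 with the highest scores, 19.2 as a median over chromosomes and 17.9 weighted by length. The TKO control difference (-1.14) went to 4.35 with any overlap. It was -7.18 without chromosome 11, -9.90 as a median over chromosomes and -3.81 weighted by length. Small differences also moved: DNMT1 KO to -0.114 with any overlap and -0.250 weighted by length, TKO to 0.422 with any overlap and -0.509 with the highest scores, and PKCi to 1.16 with the highest scores and -0.228 weighted by length. Their causes were not tested. Weighting by length and leaving out blocks scored within 1 of 0 were chosen after seeing the data. Genes at domains, planned, were not run. The number of domains limits the counting error alone, since read depth is unknown and conditions have single libraries.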

Other observations

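Distances to the short domains of each list were not used above. The nearest domain higher in 2i than in serum lay at a median of 131 kb from shared domains and 90 kb from remaining serum domains. For DNMT1 KO domains the order was the other way, with medians of 269 kb and 401.5 kb, and 34.1% (Wilson 95% interval 32.0% to 36.2%) of shared against 28.8% (27.0% to 30.7%) of remaining domains had one within 100 kb. TDG control domains lay at medians of 2377 kb and 2241 kb, and TKO domains at 3798 kb and 4160.5 kb. Shared domains were also longer (median 155 kb against 67 kb), and the part of length in these distances was not tested.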
